A study of Mus musculus with 6 samples.

Results

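The constitutive proteasome subunit genes are the mouse genes whose symbol is Psma, Psmb, Psmc or Psmd followed by a number, without the 3 immunoproteasome genes Psmb8, Psmb9 and Psmb10. Of the 36 genes with such a symbol, 35 reached at least 1 FPKM (fragments scaled per length of transcript and per sequencing depth) in at least 3 libraries, out of 10676 genes that passed this filter. The remaining gene, Psmb11, which encodes a catalytic subunit known from the thymus, was listed at 0 in all 6 libraries. The RNA came from bone marrow of wild-type (WT) mice: 3 libraries after 3 months of control diet (CD) and 3 after the same time on high cholesterol diet (HCD). LT-HSCs (long-term haematopoietic stem cells, from which blood is formed throughout life) were sorted by a gate that was lineage-negative, c-Kit-positive, Sca1-positive and negative for CD34 and CD135. The labels give no strain, age or sex, and do not say whether the libraries came from separate animals or pools, and each p-value therefore covers the spread between these libraries only, which may be technical.

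The 26S proteasome degrades proteins that carry ubiquitin chains. Its 20S core is a barrel of alpha rings (Psma genes), which gate the entrance, around beta rings (Psmb genes), of which Psmb5, Psmb6 and Psmb7 carry the peptide-cutting sites. The 19S regulatory particle caps the barrel: a ring of ATPases (Psmc genes) unfolds the substrate, and the other base and lid subunits (Psmd genes) bind it and remove its ubiquitin. Cells are known to raise the transcripts of most subunits together, through the transcription factor NFE2L1, when proteasome capacity falls short. Haematopoietic stem cells are known for a low rate of protein synthesis and for sensitivity to misfolded protein.

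The depth, estimated from the step that a single read makes in low values, was 18.8 to 19.9 × 10⁶ reads or fragments per library. HCD replicate 2 stood apart from the other HCD libraries in these genes, and counts of genes that passed are given with and without it. Transcripts of Cd34 (448 to 488 FPKM) and of Flt3, which encodes CD135 (99.7 to 115 FPKM), were high in all 6 libraries although the gate excludes both proteins. The 5 myeloid progenitor markers found of 6 listed (Mpo, Elane, Prtn3, Ctsg and Ms4a3) all rose, and their summed level was 869 to 897 FPKM under CD and 1607 to 1778 FPKM under HCD, highest in HCD replicate 2. The 7 neutrophil markers summed to 12.2 to 12.3 FPKM under CD and 40.0 to 48.2 FPKM under HCD. Of the 5 T cell markers found of 6 listed, Cd3e was at 0 throughout, Cd3d, Cd3g and Cd8a were at 0 to 0.170 FPKM, and Cd4 (0.869 to 2.28 FPKM) fell. In bulk RNA, fewer cells of a type and less RNA per cell cannot be told apart, and the part of these marker changes in the results on proteasome genes was not tested.

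Proteasome subunit transcripts were abundant in the labelled LT-HSC libraries. The median of their mean levels was 86.9 FPKM, against 12.7 FPKM for all genes tested, and 33 of the 35 lay above the latter. The most abundant was Psmb4, a beta ring subunit, at 189, 182 and 183 FPKM under CD and 191, 202 and 174 FPKM under HCD. Its lowest library lay above the highest library of the next gene, Psmb1 (147 to 172 FPKM), another beta ring subunit. The least abundant was Psma8, an alpha ring subunit known from the testis, at 2.30, 3.85 and 2.80 FPKM under CD and 4.62, 4.31 and 3.86 FPKM under HCD.

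The other alpha ring genes ran from Psma3 (41.5 to 44.9 FPKM) to Psma2 (140.1 to 149 FPKM). The beta ring was more even, with a 1.83-fold span between the mean levels of Psmb2 (102 FPKM) and Psmb4 (187 FPKM). At its lower end, Psmb2 (95.1 to 113 FPKM), Psmb5 (99.4 to 115 FPKM) and Psmb6 (104 to 129 FPKM) overlapped over the libraries. The regulatory particle genes were lower as a group: the ATPase genes ran from Psmc2 (58.6 FPKM) to Psmc3 (116 FPKM) and the lid genes from Psmd11 (28.4 FPKM) to Psmd7 (94.6 FPKM). Psmd5, Psmd9 and Psmd10, which encode chaperones that assemble the base and are no subunits of the finished particle, had mean levels of 33.4, 12.6 and 22.6 FPKM.

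**Figure D1:**
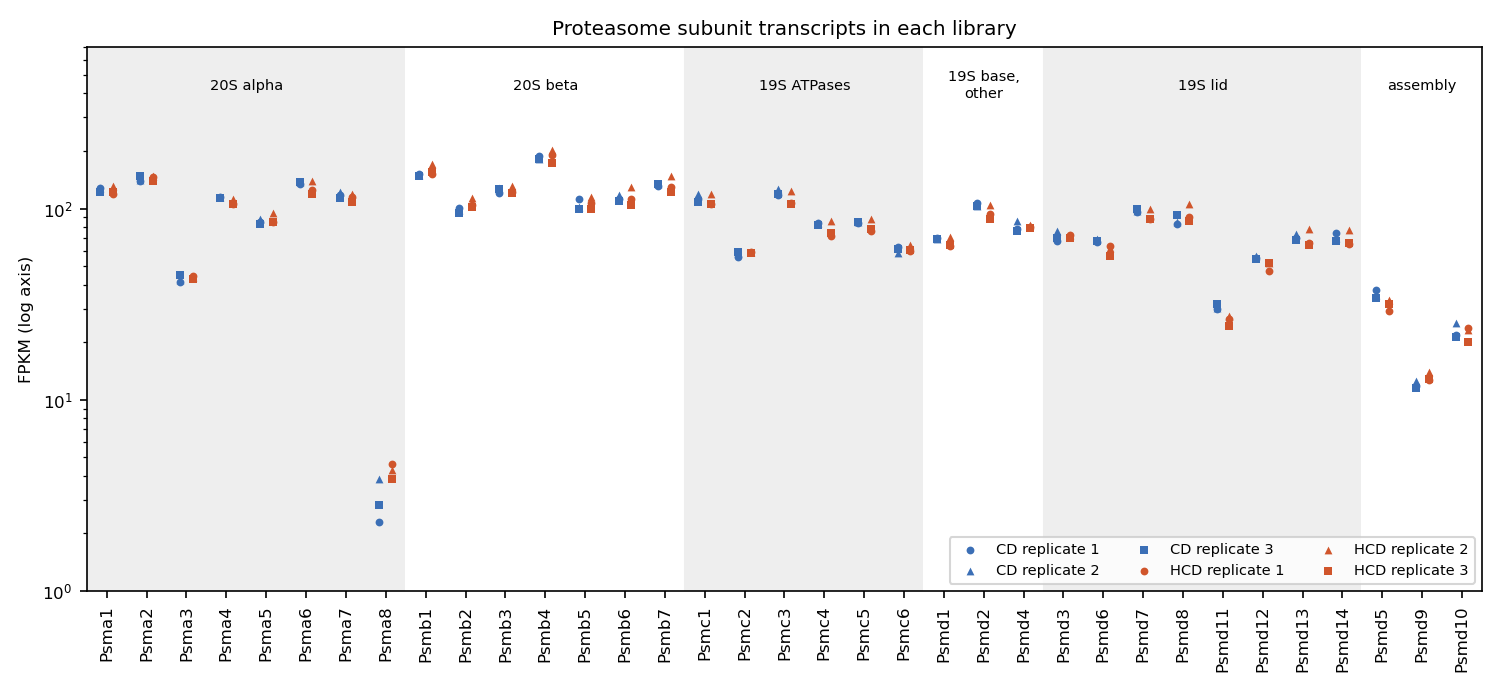
FPKM (log axis) of the 35 genes in each library, grouped by role; blue points are CD and orange points HCD, and the shape gives the replicate. The points of each gene lie close together, with Psma8 the lowest (2.30 to 4.62 FPKM) and Psmb4 the highest (174 to 202 FPKM).

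The comparison of HCD with CD asks how proteasome transcripts differed after the cholesterol-rich diet. With all 6 libraries, 1 of the 35 genes changed: Psmd11, a lid subunit gene, fell, and 0 rose. That is 2.86% of the genes, where 13.9% of all genes tested passed, 6.28% higher and 7.66% lower (limma on log2(FPKM + 1), Benjamini-Hochberg adjusted p under 0.05). Of all genes tested 670 were higher and 818 lower, a split that became 793 and 624 with TMM factors and 775 and 586 with a trend on transcript length removed. Without adjustment, 1 proteasome gene was higher and 4 were lower at a p under 0.05, against 30.9% of all genes tested in either direction. At an adjusted p under 0.1 there were 4 (11.4%; Psma8 higher, Psmd5, Psmd6 and Psmd11 lower), against 22.7% of all genes tested.

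The estimated changes of the proteasome genes were small. Their median log2 change was -0.026, against -0.033 for all genes tested, and the median size regardless of sign was 0.044, against 0.12. The proteasome genes were also more abundant (median 86.9 against 12.7 FPKM) and varied less between libraries of a diet. Their median coefficient of variation was 3.34% against 4.92% under CD and 6.57% against 7.78% under HCD. The part of level and spread in the smaller size was not tested. In 30 of the 35 genes the mean FPKM differed by less than 10% between the diets. For 33 genes the 95% interval of the change on log2(FPKM + 1) lay between -20% and 25%, the exceptions being Psmd11 and Psma8. The diets' libraries did not overlap in 9 genes (25.7%), 4 higher under HCD (Psma8, Psmb1, Psmb2 and Psmd9) and 5 lower (Psma4, Psmd5, Psmd6, Psmd11 and Psmd12), where 37.7% of all genes tested did not overlap (15.0% higher and 22.7% lower).

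**Figure D2:**
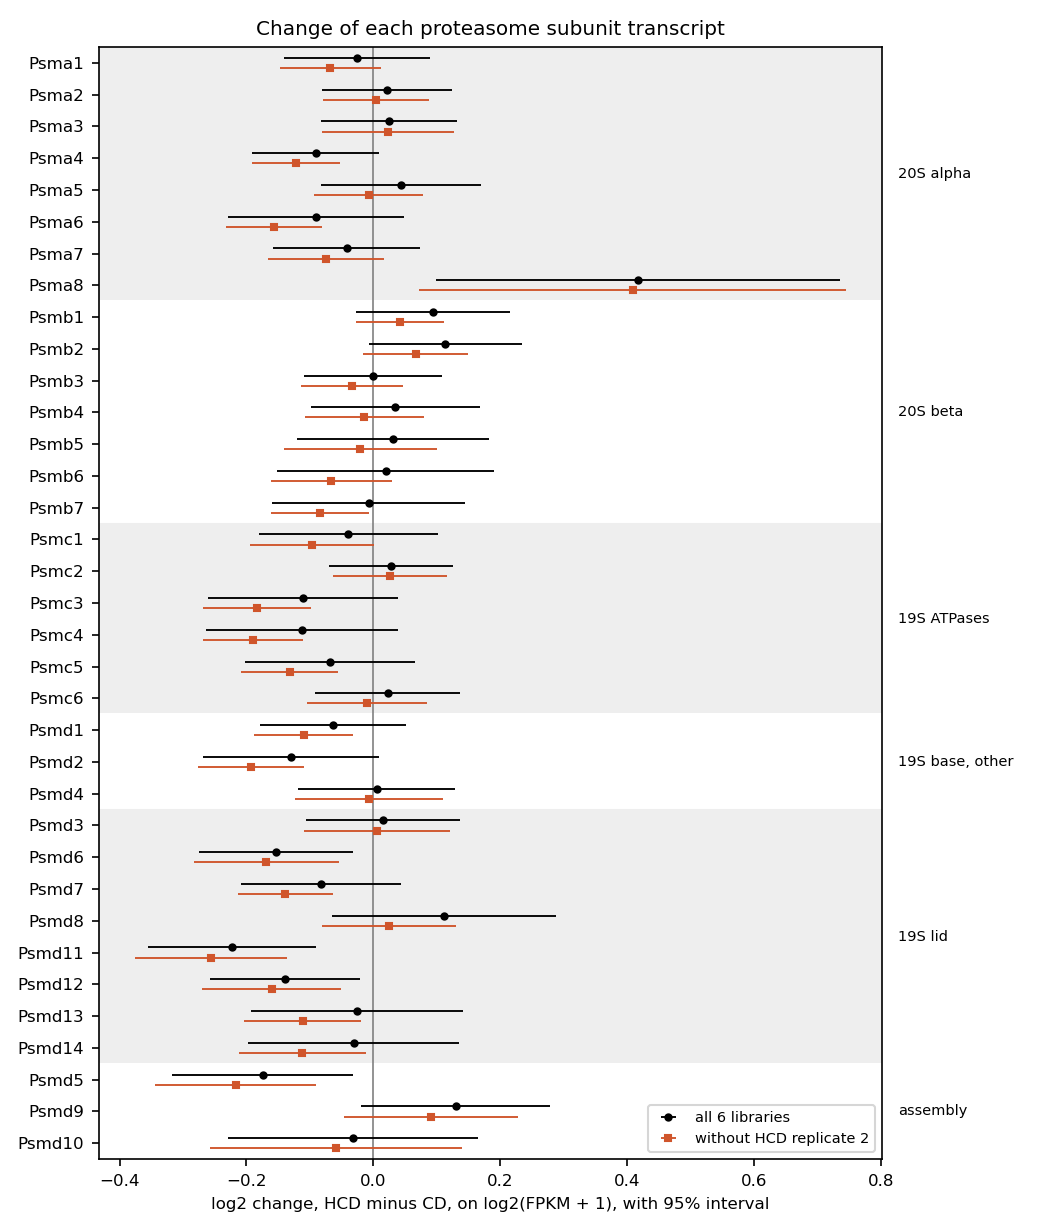
Log2 change of each gene, HCD minus CD on log2(FPKM + 1), with its 95% interval from limma, for all 6 libraries (black circles) and without HCD replicate 2 (orange squares); bands mark the roles. With all libraries the interval of Psmd11 runs from -0.35 to -0.091, and without HCD replicate 2 most estimates lie further to the left.

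The 7 beta ring genes include the catalytic subunits, and 0 of them passed the test by limma in either direction, nor did any at an unadjusted p under 0.05. Psmb5, which encodes the chymotrypsin-like site (chr14:54614119-54618022 in GRCm38), was at 113, 102 and 99.4 FPKM under CD and 106, 115 and 99.9 FPKM under HCD. Psmb6, which encodes the caspase-like site (chr11:70525367-70527858), was at 112, 118 and 110.2 FPKM under CD and 112, 129 and 104 FPKM under HCD. Psmb7, which encodes the trypsin-like site (chr2:38588036-38644087), was at 131, 135 and 134 FPKM under CD and 129, 148 and 123 FPKM under HCD. The diets overlapped for all 3 genes, and HCD replicate 2 was the highest of the 6 libraries in each.

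From CD to HCD the means of the catalytic genes differed by less than their spread. Psmb5 had means of 105 ± 7.01 and 107 ± 7.51 FPKM (SD, n = 3 per diet), with a 95% interval of the change of -8.00% to 13.4% (adjusted p = 0.783 by limma). Psmb6 had means of 113 ± 3.79 and 115 ± 12.8 FPKM (SD, n = 3 per diet), with an interval of -9.99% to 14.1% (adjusted p = 0.883 by limma). Psmb7 had means of 133 ± 1.89 and 133 ± 12.9 FPKM (SD, n = 3 per diet), with an interval of -10.4% to 10.5% (adjusted p = 0.946 by limma). With 3 libraries per diet, changes within these intervals were not excluded, and the intervals give no limit of detection. Psmb5 shares 109 exonic bases with Mir686 on the same strand. Psmb7 shares 405 exonic bases with Nek6 on the other strand, and the sources used here do not say whether the counting used the strand. Processed pseudogenes of Psmb5, Psmb6 and Psmb7 are annotated, and how reads shared with them were counted is not stated either.

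Among the beta subunits without a cutting site, Psmb1 and Psmb2 had HCD libraries that all lay above the CD libraries. Psmb1 was at 151, 149.7 and 147 FPKM under CD and 152, 172 and 156 FPKM under HCD (adjusted p = 0.265 by limma). Psmb2 was at 101, 98.1 and 95.1 FPKM under CD and 104, 113 and 101 FPKM under HCD (adjusted p = 0.185 by limma). In both genes the lowest HCD library was close to the highest CD library. Psmb3 (120.2 to 131 FPKM) and Psmb4 overlapped between the diets, with adjusted p-values of 0.995 and 0.721 by limma.

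Of the 8 alpha ring genes 0 passed the test by limma, and at an unadjusted p under 0.05 there was 1, Psma8, which was higher. Psma8 had the largest upward estimate of the 35 genes, from 2.98 ± 0.788 to 4.26 ± 0.384 FPKM (SD, n = 3 per diet; log2 change 0.42, SE 0.14, adjusted p = 0.0819 by limma). All its HCD libraries lay above its CD libraries, but HCD replicate 3 exceeded CD replicate 2 by little, and without CD replicate 2 the adjusted p by limma was 0.0391. About 134 reads stand behind its mean value, the fewest of the 35 genes, and on the log2(FPKM + 1) scale the change of such a low gene is understated. Psma4 was at 115, 115 and 113 FPKM under CD and 105, 112 and 105 FPKM under HCD, so that all HCD libraries lay below all CD libraries (adjusted p = 0.198 by limma). The other 6 alpha ring genes overlapped between the diets, with estimates between -0.091 (Psma6) and 0.044 (Psma5) on the log2 scale.

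Of the 6 ATPase genes of the regulatory particle 0 passed the test by limma, and none did at an unadjusted p under 0.05. Their estimates lay between -0.11 (Psmc4) and 0.027 (Psmc2), and all 6 overlapped between the diets. Psmc4 was at 84.5, 83.8 and 82.4 FPKM under CD and 71.9, 86.1 and 74.4 FPKM under HCD (adjusted p = 0.286 by limma). HCD replicates 1 and 3 lay below all CD libraries, while HCD replicate 2 lay above them. The same held for Psmc5, at 84.3, 84.8 and 85.6 FPKM under CD and 76.3, 88.6 and 78.5 FPKM under HCD. Psmc2 was the most even gene under HCD, at 56.1, 58.8 and 59.4 FPKM under CD and 59.5, 59.3 and 58.7 FPKM under HCD.

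The base also holds Psmd1 and Psmd2, large scaffold subunits that dock ubiquitin receptors, and Psmd4, a ubiquitin receptor. None of these 3 passed the test by limma, nor at an unadjusted p under 0.05. Psmd2 was at 107, 104 and 103 FPKM under CD and 93.8, 104 and 88.6 FPKM under HCD (adjusted p = 0.186 by limma). Its HCD replicates 1 and 3 were lower than all CD libraries and HCD replicate 2 lay within their range. Psmd1 (63.7 to 70.9 FPKM) and Psmd4 (76.0 to 86.3 FPKM) had adjusted p-values of 0.428 and 0.954 by limma.

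The lid holds the gene that passed the test. Psmd11 (chr11:80428615-80473248 in GRCm38) was at 29.8, 30.2 and 31.8 FPKM under CD and 26.5, 27.3 and 24.4 FPKM under HCD, and all HCD libraries lay below all CD libraries. It fell from 30.6 ± 1.07 to 26.1 ± 1.51 FPKM (SD, n = 3 per diet; log2 change -0.22, SE 0.058, adjusted p = 0.0375 by limma). Its direction was the same under every alternative run, with adjusted p-values of 0.00822 to 0.145. The call was lost with no filter on low values (0.0638), with TMM factors (0.0684), with the length trend removed (0.0517) and without CD replicate 1 (0.0968), CD replicate 2 (0.106), CD replicate 3 (0.145), HCD replicate 1 (0.0877) or HCD replicate 3 (0.0890), all adjusted p-values by limma.

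Psmd6 and Psmd12, which like Psmd11 encode scaffold subunits of the lid, also had HCD libraries below all CD libraries. Psmd6 was at 66.8, 69.0 and 67.5 FPKM under CD and 63.9, 62.2 and 56.7 FPKM under HCD (adjusted p = 0.0908 by limma, and 0.0486 with the length trend removed). Psmd12 was at 55.1, 56.6 and 54.4 FPKM under CD and 47.0, 51.7 and 52.0 FPKM under HCD (adjusted p = 0.109 by limma). The remaining 5 lid genes overlapped between the diets: Psmd3 (67.6 to 76.4 FPKM), Psmd7 (87.8 to 99.3 FPKM), Psmd8 (83.1 to 106 FPKM), Psmd13 (64.9 to 78.5 FPKM) and Psmd14, the deubiquitinase of the lid (65.0 to 77.6 FPKM). Psmd8 had the highest estimate of the lid, 0.11, with an adjusted p of 0.362 by limma.

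Of the 3 assembly chaperone genes 0 passed the test by limma, with 1 lower (Psmd5) at an unadjusted p under 0.05. Psmd5 was at 37.3, 35.3 and 33.9 FPKM under CD and 29.1, 33.3 and 31.8 FPKM under HCD (adjusted p = 0.0992 by limma), with all HCD libraries below all CD libraries. Psmd9 was at 11.8, 12.5 and 11.5 FPKM under CD and 12.8, 13.9 and 12.8 FPKM under HCD (adjusted p = 0.213 by limma), with all HCD libraries above all CD libraries. Psmd9 shares 1849 exonic bases with Gm26745 on the other strand, so its level is uncertain. Smaller overlaps with genes on the other strand touch, among others, Psmc3 (Slc39a13, 215 bases), Psmd13 (Sirt3, 342 bases) and Psmd1 (Htr2b, 252 bases). Psmd1 also shares 301 exonic bases with Gm21972 on the same strand. Psmd10 (19.99 to 25.4 FPKM) overlapped between the diets.

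The upstream sequences of 4 genes are shown because they hold a match to the antioxidant response element searched for NFE2L1 (Psmb5, Psmb6 and Psmd12) or belong to the gene that passed the test (Psmd11). They are RefSeq promoters of GRCm38.p6, cut to the bases before the start that lie in no annotated exon, written 5′ to 3′ on the gene's strand, with motif matches in capitals.
Psmb5, chr14:54618023-54618245, minus strand: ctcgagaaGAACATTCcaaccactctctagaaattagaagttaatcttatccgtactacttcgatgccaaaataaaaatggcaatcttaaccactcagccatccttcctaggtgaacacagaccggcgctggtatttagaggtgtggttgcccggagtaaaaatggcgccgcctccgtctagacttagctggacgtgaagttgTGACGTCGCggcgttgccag
Psmb6, chr11:70525107-70525356, plus strand: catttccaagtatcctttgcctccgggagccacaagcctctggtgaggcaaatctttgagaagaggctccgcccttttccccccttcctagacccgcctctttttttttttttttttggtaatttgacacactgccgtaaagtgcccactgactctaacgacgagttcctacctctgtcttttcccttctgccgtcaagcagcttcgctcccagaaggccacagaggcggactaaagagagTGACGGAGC
Psmd12, chr11:107479278-107479483, plus strand: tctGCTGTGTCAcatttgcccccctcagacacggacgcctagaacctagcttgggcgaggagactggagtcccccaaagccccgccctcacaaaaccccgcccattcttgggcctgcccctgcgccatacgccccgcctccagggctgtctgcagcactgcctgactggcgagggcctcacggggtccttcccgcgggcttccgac
Psmd11, chr11:80428365-80428614, plus strand: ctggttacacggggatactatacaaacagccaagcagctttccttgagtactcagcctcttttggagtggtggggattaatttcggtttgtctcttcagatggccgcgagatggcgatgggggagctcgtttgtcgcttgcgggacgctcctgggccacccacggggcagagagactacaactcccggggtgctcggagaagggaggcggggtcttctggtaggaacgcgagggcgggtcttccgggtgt
In Psmb5 the capitals mark the heat shock element core and then the antioxidant response element, in Psmb6 and Psmd12 the antioxidant response element, and Psmd11 holds no match to the motifs searched. The match in Psmd12 lies on the opposite strand.

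Promoter windows, which reach past the start site, were found for 28 of the 35 genes, and 3 motifs were searched on both strands. TGACNNNGC, the antioxidant response element, was found in 5 of the 28 (17.9%: Psmb5, Psmb6, Psmc6, Psmd9 and Psmd12), against 12.4% of all promoters and 17.2% of the tested genes with a promoter. CCAAT, the motif of NF-Y, was found in 11 (39.3%), against 37.4% of all promoters and 43.3% of the tested genes. GAANNTTC, the heat shock element core, was found in Psmb5 alone (3.6%), against 7.9% and 7.0%. These shares describe the letters in the windows and not binding.

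HCD replicate 2 had the highest value of the 3 HCD libraries in 29 of the 35 genes (82.9%), where it was the highest in 36.3% of all genes tested. HCD replicate 1 was the highest in 5 genes and HCD replicate 3 in 1. Within the CD group the same-numbered library, CD replicate 2, was the highest in 17 genes (48.6%), against 31.7% of all genes tested. The median difference of HCD replicate 2 from the mean of the other HCD libraries was 0.14 on the log2 scale for the proteasome genes and -0.025 for all genes tested. This difference ran against transcript length with a Spearman rho of -0.246 over the proteasome genes and -0.281 over 10354 genes, a description across genes that share their libraries. The median transcript length was 1883 bases for the proteasome genes and 3378 bases for all genes tested. The part of transcript length in the result was not tested beyond the fits with the length trend removed.

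Within the HCD group the spread of the proteasome genes was wider than within CD, with a median coefficient of variation of 6.57% against 3.34% (all genes tested: 7.78% and 4.92%). Both HCD replicate 1 and HCD replicate 3 lay below all CD libraries in 17 of the 35 genes, and in 30.3% of all genes tested. By role, the median log2 difference from the CD mean in HCD replicates 1, 2 and 3 was -0.12, 0.052 and -0.10 for the ATPases, -0.12, 0.030 and -0.10 for the other base subunits and -0.11, 0.032 and -0.11 for the lid. It was -0.020, 0.048 and -0.044 for the alpha ring, 0.022, 0.14 and -0.065 for the beta ring and -0.019, -0.051 and -0.016 for all genes tested. The regulatory particle groups were thus low in HCD replicates 1 and 3 and not in HCD replicate 2, and the beta ring was high in HCD replicate 2.

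**Figure D3:**
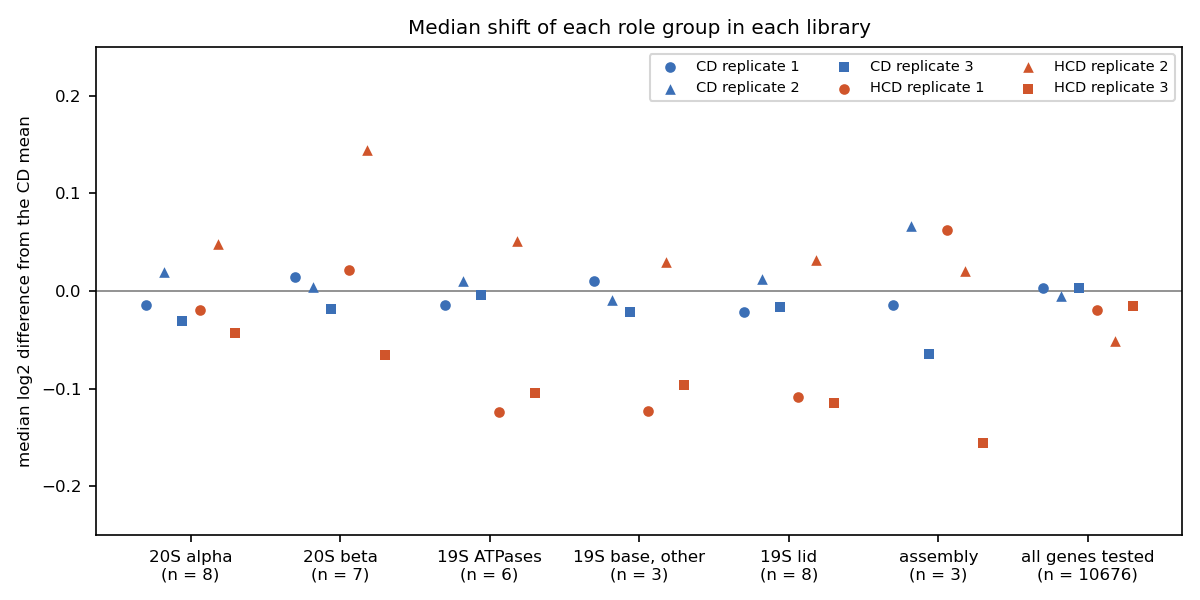
Median log2 difference from the CD mean of the genes of each role (n genes below each name) and of all genes tested, with one point per library (blue CD, orange HCD, shape by replicate). HCD replicates 1 and 3 of the ATPases, other base subunits and lid lie near -0.1, and HCD replicate 2 lies above 0 in each role group.

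Without HCD replicate 2, 12 of the 35 genes fell (34.3%) and 0 rose (limma, adjusted p under 0.05). Of all genes tested in that fit 14.2% fell and 11.0% rose, 25.2% in all. At an unadjusted p under 0.05 by limma, 15 of the 35 were lower and 1 higher, against 2270 and 1827 of the 10607 genes tested. HCD replicate 2 was singled out for its high values in these same genes, and leaving it out lowers most of their HCD means. The excess over all genes is therefore not independent evidence of a fall. The 12 were the alpha ring genes Psma4 and Psma6, the ATPase genes Psmc3, Psmc4 and Psmc5, the base genes Psmd1 and Psmd2, the lid genes Psmd6, Psmd7, Psmd11 and Psmd12, and the chaperone gene Psmd5. The beta ring had 0 (1 lower at an unadjusted p under 0.05 by limma). The lowest adjusted p-values were those of Psmc4 (log2 change -0.19, adjusted p = 0.00474 by limma) and Psmd2 (-0.19, adjusted p = 0.00575).

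Psmd11 had the lowest estimate without HCD replicate 2, -0.26 on the log2 scale (adjusted p = 0.00822 by limma), and Psmd1 the smallest fall among the 12, -0.11. The median log2 change was -0.068 for the 35 genes and -0.020 for all genes tested. It was -0.11 for the 17 base and lid genes and -0.021 for the 15 genes of the rings, a difference between the groups that was not tested. In fits added after the data had been seen, 9 genes fell and 0 rose with TMM factors and without HCD replicate 2 (25.7%, against 11.7% of all genes), and 11 fell and 0 rose with the length trend removed (31.4%, against 11.8%). These fits have 2 HCD libraries and describe how the counts depend on HCD replicate 2.

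The median of the 15 ring genes divided by the median of the 17 base and lid genes was 1.58, 1.59 and 1.63 under CD and 1.59, 1.65 and 1.54 under HCD. HCD replicate 2 had the highest ratio and HCD replicate 3 the lowest, with the CD libraries between them.

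Cells can exchange the catalytic subunits for the immunoproteasome subunits Psmb8, Psmb9 and Psmb10, which are induced by interferon. The ratio of Psmb8 to Psmb5 was 2.51, 2.83 and 2.82 under CD and 2.46, 2.62 and 2.40 under HCD (exact permutation test, p = 0.2). The ratio of Psmb9 to Psmb6 was 0.980, 0.851 and 1.03 under CD and 0.979, 0.850 and 1.06 under HCD (exact permutation test, p = 1), lowest in replicate 2 of both diets. The ratio of Psmb10 to Psmb7 was 0.503, 0.513 and 0.482 under CD and 0.471, 0.443 and 0.464 under HCD, lower in every HCD library (exact permutation test, p = 0.1). These exact permutation tests were two-sided, 3 against 3 libraries cannot go below p = 0.1, and over the 3 ratios the adjusted p-values were 0.3, 1 and 0.3. Between same-numbered libraries the ratio was lower under HCD in 3 of 3 pairs for Psmb8, 2 of 3 for Psmb9 and 3 of 3 for Psmb10 (exact paired permutation test, p = 0.25, 1.0 and 0.25; 3 pairs cannot go below 0.25). None of the 3 immunoproteasome genes passed the test by limma (0 at an unadjusted p under 0.05), and without HCD replicate 2 Psmb8 (log2 change -0.18, adjusted p = 0.00923) and Psmb10 (-0.17, 0.0214) fell. Psmb8 also passed with quantile normalization of all 6 libraries, with a log2 change of -0.20 (adjusted p = 0.0304 by limma) against -0.094 (0.440) as deposited.

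**Figure D4:**
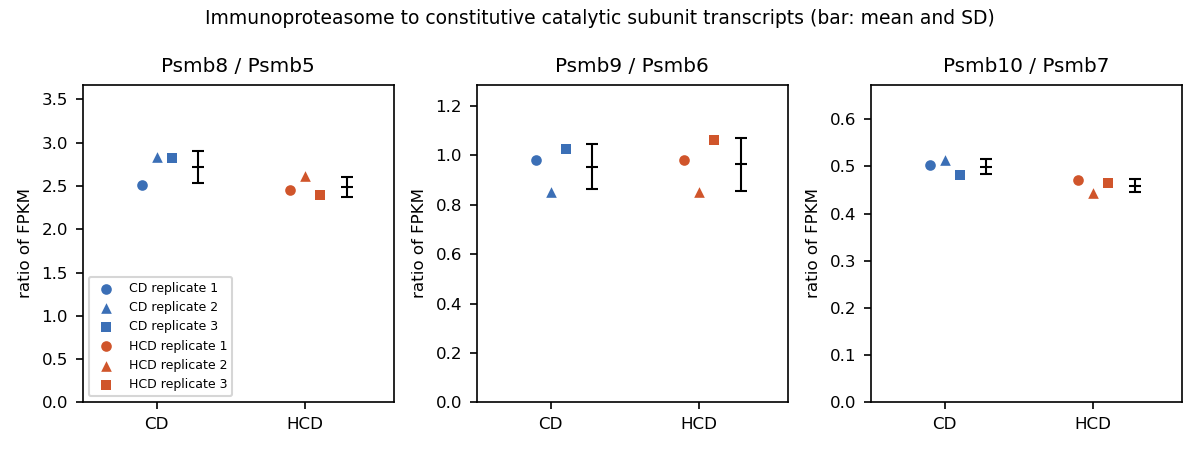
Ratio of FPKM of each immunoproteasome gene to its constitutive counterpart in each library (blue CD, orange HCD, shape by replicate), with the mean and SD of each diet beside the points. The diets overlap for Psmb8 to Psmb5 and Psmb9 to Psmb6 and not for Psmb10 to Psmb7.

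Genes that build, regulate or feed the proteasome were taken as further lists; beside their counts stand the 13.9% of all genes that passed with all 6 libraries and the 25.2% without HCD replicate 2. Of the 5 chaperone genes that assemble the core (Pomp and Psmg1 to Psmg4) 0 passed the test by limma (0 at an unadjusted p under 0.05), and neither did the subunit genes outside the symbol rule, Adrm1 and Shfm1 (0 of 2 at an unadjusted p under 0.05). Without HCD replicate 2, 1 of the chaperone genes fell, Psmg3 (log2 change -0.47, adjusted p = 0.00775 by limma), and 0 rose. Of the 5 genes for activators and an inhibitor of the core 1 fell and 0 rose. Psme3, which encodes the nuclear activator PA28 gamma, was at 82.1, 86.0 and 84.1 FPKM under CD and 72.1, 72.0 and 69.4 FPKM under HCD, and all HCD libraries lay below all CD libraries (log2 change -0.24, SE 0.042, adjusted p = 0.0101 by limma). The adjusted p was 0.0564 without CD replicate 2 and 0.0531 without CD replicate 3. Without HCD replicate 2, Psme3 (adjusted p = 0.00193 by limma) and Psme2, which encodes a subunit of the interferon-induced activator (0.00311), fell and 0 rose.

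Among 13 tested genes for deubiquitinases, substrate shuttles and other proteins associated with the proteasome 1 fell and 0 rose. Ubqln4, a shuttle that binds ubiquitin chains, fell from 40.1 ± 1.75 to 31.1 ± 0.653 FPKM (SD, n = 3 per diet; log2 change -0.36, SE 0.050, adjusted p = 0.00372 by limma), and it passed under all 13 alternatives run, with adjusted p-values of 0.00121 to 0.0257. Without HCD replicate 2, Ubqln1, Ubqln2, Ubqln4 and Txnl1 were among those that fell, and Zfand5 rose, by limma. Of 9 genes for the unfolding ATPase VCP and its cofactors 1 fell and 0 rose. Ubxn4, an endoplasmic reticulum cofactor, fell from 36.5 ± 1.67 to 30.6 ± 1.47 FPKM (SD, n = 3 per diet; log2 change -0.25, SE 0.056, adjusted p = 0.0225 by limma), with adjusted p-values of up to 0.1001 in the 6 alternatives that lost the call: the length trend removed and without any 1 of CD replicate 1, 2 or 3 or HCD replicate 1 or 3. Without HCD replicate 2, Ubxn4 fell (adjusted p = 0.00333 by limma) and Ufd1l, a VCP cofactor, rose (0.0311).

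Among genes for ubiquitin and its activating enzymes, Ubb rose and Uba6 fell. Ubb, which encodes ubiquitin, was at 584, 599 and 598 FPKM under CD and 722, 690.0 and 697 FPKM under HCD, all HCD libraries above all CD libraries (log2 change 0.24, SE 0.046, adjusted p = 0.0120 by limma). The call of Ubb was lost without CD replicate 1 (0.0769), CD replicate 2 (0.0608), CD replicate 3 (0.0643) or HCD replicate 1 (0.0629) at log2 changes of 0.22 to 0.25. It was also lost with quantile normalization, where the log2 change itself was 0.13 (adjusted p = 0.0929 by limma). Uba6, an activating enzyme, fell from 8.37 ± 0.690 to 6.505 ± 0.451 FPKM (SD, n = 3 per diet; log2 change -0.32, SE 0.084, adjusted p = 0.0386 by limma), a call lost under 9 alternatives: no filter, TMM factors, quantile normalization, the length trend removed, and without any 1 of the libraries other than HCD replicate 2, with adjusted p-values up to 0.146.

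Of 8 genes of the NFE2L1 pathway 0 passed the test by limma with all 6 libraries, and 2 were higher at an unadjusted p under 0.05. Nfe2l1 was at 31.2, 35.1 and 31.2 FPKM under CD and 30.3, 34.9 and 29.4 FPKM under HCD and overlapped between the diets (adjusted p = 0.721 by limma). Maff, a small MAF partner, was at 4.77, 4.61 and 4.95 FPKM under CD and 8.35, 4.76 and 8.14 FPKM under HCD, with HCD replicate 2 within the range of the CD libraries. Its adjusted p was 0.113 with all libraries and 0.000284 without HCD replicate 2, by limma, where it was the 1 gene of the 8 that passed.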

How the data were processed

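RNA of sorted cells was made into stranded mRNA libraries, per the labels' protocols. The deposited values are taken as FPKM, made by the authors, from their scale and the tool names, and the files do not tell FPKM from RPKM. The submitters' processing notes name fastp, HISAT2, StringTie and the builds GRCm38 and mm10; neither versions nor counting settings are stated there. Of 21878 rows per table, 27 with a date in place of a symbol (0.127% of the FPKM) were left out. The genes that reached 1 FPKM in 3 or more libraries were tested with limma 3.58.1 in R 4.3.3 (trend, robust, two-sided, no covariate) on log2(FPKM + 1), with Benjamini-Hochberg adjustment over all of them and a threshold of 0.05. Ratios were tested by exact permutation (scipy 1.17.1). The fit was also run on simulated counts with equal depth, a common dispersion, no deviant library and no length trend. That run cannot show how the counts depend on HCD replicate 2 or on transcript length. The depth rests on 36.0% to 40.5% of low values that were whole reads within 0.03, where a flat spread gives 6% at a fixed depth. The depth was chosen as the trial value with the largest such share, so the 6% is too low a baseline for that choice. No intervals were made from the depth. Positions and lengths are from GENCODE, promoters from RefSeq.

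The members and lists were chosen with earlier results of these data known. The naming rule took the catalytic genes, the extremes by level and change, and genes past the threshold; further genes were named after their values were seen. The alternatives were no filter or one of 5 FPKM, 0.1 as pseudocount, TMM factors, quantile normalization, a replicate block, removal of a length trend, a threshold of 0.1 and each library left out; both combinations with HCD replicate 2 left out, and a paired test of the ratios, were added after the data were seen. Same-numbered libraries correlated in their deviations from the diet means (0.103, 0.292 and 0.166), and those with different numbers at -0.250 to 0.0983, of which the highest is close to the lowest same-numbered value. The labels state no pairing, so the main fit has no block, and blocked fits were run as alternatives. One listed gene, Paaf1, was not matched to a row, and some genes of the further lists are not reported here.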

Additional observations from a re-analysis of the deposited data

How the results depend on the processing

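The count of proteasome genes that passed was 1 with all 6 libraries. It was 0 with no filter, 0 with TMM factors, 4 at a threshold of 0.1, 9 with TMM factors and 11 with the length trend removed when HCD replicate 2 was left out as well, and 0 to 12 when single libraries were left out, with 12 without HCD replicate 2. The single call was Psmd6 with the length trend removed and Psma8 without CD replicate 2. The cause of these changes was not tested. The count over all genes, 1488, was 2419 at a threshold of 0.1, 2600 with TMM factors and 2525 with the length trend removed, both without HCD replicate 2, and 435 to 2672 when single libraries were left out. The median change of the proteasome genes differed from its value with all libraries by less than the SD between libraries (0.0638) under every alternative. That SD rests largely on HCD replicate 2, where the median FPKM of these genes was 94.8, against 84.5 to 86.3 in the other libraries. It is thus a wide measure for the fits without HCD replicate 2, and the comparison does not show that the median was stable there. The SD is also larger than the size of the median itself (-0.026), whose sign was not stable. The median was above 0 with TMM factors (0.0021) and without CD replicate 2 (0.0018), HCD replicate 1 (0.011) or HCD replicate 3 (0.020). It was lowest with the length trend removed and without HCD replicate 2 (-0.078). With the replicate number as a block, 1873 genes passed (841 higher, 1032 lower) and 1 proteasome gene, and the block changed no call among the 44 named genes; a paired test changed none of the 3 ratio calls, at log2 differences of -0.13, 0.014 and -0.12. Estimates that turned sign, all uncalled, were Psma1 (0.0021), Psmb3 (0.028), Psmb7 (0.021) and Psmd13 (0.0021) with TMM factors, Psmb3 (0.0048), Psmb4 (-0.0032) and Psmb7 (0.0063) with quantile normalization, and Psmb5 (-0.013), Psmb6 (-0.021), Psmb7 (0.0018) and Psmd4 (-0.0022) with the length trend removed. Leaving out single libraries gave ranges across 0 of -0.068 to 0.00014 for Psma1, -0.0076 to 0.071 for Psma5, -0.034 to 0.020 for Psmb3, -0.014 to 0.092 for Psmb4, -0.021 to 0.084 for Psmb5, -0.066 to 0.087 for Psmb6, -0.084 to 0.048 for Psmb7, -0.019 to 0.069 for Psmb9, -0.10 to 0.0011 for Psmc1, -0.011 to 0.046 for Psmc6, -0.022 to 0.066 for Psmd3, -0.032 to 0.059 for Psmd4, -0.080 to 0.042 for Psmd10, -0.11 to 0.025 for Psmd13 and -0.11 to 0.014 for Psmd14.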
